A study of Mus musculus with 3 samples.

Results

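The 6 mRNAs Camk2a, Ddn, Map2, Nrgn, Arc and Shank1, whose transcripts are known from earlier work to be carried into neuronal dendrites, were followed in single-cell RNA sequencing of the mouse dentate gyrus. They were chosen by gene symbol, with earlier results of these data known. All 6 of the 15535 genes listed in at least 1 of the 3 count tables were listed in every table. The runner library came from hGFAP-eGFP mice of 8 weeks given a running wheel for 12 days, the aged library from hGFAP-eGFP mice at 14 months kept without a wheel, and the control library from 8-week-old mice in standard housing, to which the runners were littermates. The sample labels give hGFAP-eGFP, a GFP reporter driven by a human GFAP promoter, as the strain of all 3 libraries, while the series' own text calls the mice WT; the sample labels are followed here. Dentate gyri were dissociated with trypsin, cleaned by sucrose spins and made into droplet libraries that read the 3′ ends of transcripts. Each group was 1 library. The labels do not give the number of mice behind a library, and they describe no sort by GFP. The labels call the material primary cells.

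Most mRNAs are translated near the nucleus, but neurons also pack some into granules that motor proteins move along microtubules. Such mRNAs can be translated near synapses, so that a postsynaptic site can make kinase, scaffold and signalling protein on the spot. When tissue is dissociated, dendrites are torn from their cell bodies. Where an mRNA lay in the cell was not measured here, so the name of the group rests on earlier knowledge of these genes and not on these data.

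In these libraries Camk2a, Ddn, Map2 and Shank1 had 8.94 to 39.6 times the level in barcodes rich in mitochondrial RNA that they had in barcodes with little of it, in every library. Nrgn differed less, by 2.54 to 3.56 times. Among cells with little mitochondrial RNA, granule-neuron-like cells held the most of the 6 mRNAs together. Nrgn was high there and close to its level in microglia-like cells in the other classes named here. Arc was close to the limit of detection throughout.

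The runner, aged and control libraries held 3328, 2421 and 2356 barcodes with 3808360, 2537567 and 2330698 UMIs (unique molecular identifiers, each standing for 1 captured RNA molecule). The median barcode held 867, 847 and 779 UMIs in these libraries, of which 42.9%, 46.3% and 36.6% were mitochondrial. Over the 3 libraries, 28 barcode sequences occurred in more than 1 library. The members gave 13697 UMIs in the runner library, 9788 in the aged library and 9081 in the control library, and at least 1 of them was seen in 81.2%, 85.1% and 86.2% of barcodes. Barcodes were split by the share of their UMIs from genes with the mt- prefix, and a member's level is its UMIs per 1000000 non-mitochondrial UMIs of the barcodes summed, written CPM. Intervals in brackets are exact at 95% and cover counting error only.

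The annotated gene Camk2a lies at chr18:60925618-60988152 on the plus strand of the GRCm38 build (GENCODE M21), and no sequence of it is shown.

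The 3′ ends of the transcripts are shown because these libraries count only the tail end of each mRNA. In GENCODE M21 on the GRCm38 build, Map2 lies at chr1:66175273-66442583 on the plus strand and Shank1 at chr7:44310253-44360572 on the plus strand. Ddn lies at chr15:98803777-98809490, Arc at chr15:74669083-74672570 and Nrgn at chr9:37544492-37552904, all on the minus strand. The annotated 3′ UTRs are 3372 bases in Camk2a, 1500 in Ddn, 3576 in Map2, 863 in Nrgn, 1668 in Arc and 3235 in Shank1, against a median of 978 over 19685 genes. Their G+C content was 51.5%, 52.6%, 36.1%, 54.5%, 57.1% and 56.7% in the same order, against a median of 43.4%. Nrgn has the shortest 3′ UTR of the 6, and Map2 is the only one with G+C below the median. The letters AATAAA, the canonical signal for cutting and polyadenylating an mRNA, were searched on the transcript strand in the last 100 bases. They were there in all members but Shank1, and in 65.0% of all genes. TTTTAT, a form of the cytoplasmic polyadenylation element, stood in none of these windows and in 13.8% of those of all genes, although the 3′ UTR of Map2 holds 5 copies further from its end.

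The 30 bases around AATAAA, given in capitals, are taken from the GENCODE transcripts, and each ends within 3′ UTR sequence at chr15:98803785-98803814 (minus strand) for Ddn, chr1:66442550-66442579 (plus strand) for Map2, chr9:37544498-37544527 (minus strand) for Nrgn and chr15:74669084-74669113 (minus strand) for Arc.
Ddn: tagcaggcgcccAATAAAtctactcgcccc
Map2: attgttttgcaaAATAAAattgcttgtcac
Nrgn: tggaatgtgaatAATAAAgaggaatgtcta
Arc: tatgattttgttAATAAAactatgaaactt
The signal begins 26 bases from the annotated transcript end in Ddn, 22 in Map2, 24 in Nrgn and 19 in Arc, so all 4 mRNAs have an annotated end that 3′ capture can read.

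Barcodes of 4 ranges of mitochondrial share were compared within each library: under 10%, 10 to 30%, 30 to 50%, and 50% or more. The runner library had 991, 219, 1180 and 938 barcodes in these ranges, the aged library 401, 205, 921 and 894, and the control library 527, 448, 977 and 404. The 30 to 50% and the 50% or more ranges together held 46.6% and 36.1% of the members' UMIs in the runner library, 44.3% and 43.2% in the aged library and 54.7% and 22.2% in the control library. Of all non-mitochondrial UMIs, those ranges held only 18.4% and 10.8% in the runner library, 30.0% and 19.9% in the aged library and 26.5% and 8.02% in the control library. In every library these ranges held a larger share of the members' UMIs than of all non-mitochondrial UMIs.

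Camk2a, the alpha subunit of the calcium- and calmodulin-dependent kinase II of the postsynaptic density, had 249.5, 1885, 5925 and 8479 CPM over the 4 ranges, low to high, in the runner library. It had 293, 1609, 4193 and 6750.0 in the aged library and 430.1, 1721, 5123 and 7529.5 in the control library. Its level was higher in each range than in the range below it in all 3 libraries. The libraries' values in the top range did not overlap those in the bottom range. How many of all genes show the same lack of overlap was not counted. The ratio of the 50% or more range to the under 10% range was 34.0 (30.7 to 37.6) in the runner library, 23.0 (19.8 to 27.0) in the aged library and 17.5 (15.4 to 19.9) in the control library.

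Ddn encodes dendrin, a proline-rich protein of dendrites and the postsynaptic density. It had 81.9, 701, 2703 and 3244 CPM over the 4 ranges in the runner library, 161, 763, 2129 and 3211 in the aged library, and 249, 951, 3102 and 3888 in the control library. Its ratio between the top and bottom ranges was 39.6 in the runner library, 19.996 in the aged library and 15.6 in the control library. Again no values of the top and bottom ranges overlapped, with the share of all genes showing this not counted. The control library was the highest of the 3 in each range for Ddn.

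Map2 encodes the microtubule-associated protein of dendrites. Its level was 205.0, 717, 1580 and 2334 CPM over the 4 ranges in the runner library, 139, 412, 1167 and 1619 in the aged library, and 134, 452, 1414 and 1995 in the control library. The runner library was the highest of the 3 in every range, and the ratio between top and bottom ranges was 11.4, 11.6 and 14.9 in the runner, aged and control libraries.

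Shank1 encodes a master scaffold of the postsynaptic density. Its level was 74.7, 421, 1372 and 1335 CPM over the 4 ranges in the runner library, 71.2, 482, 902 and 907 in the aged library, and 95.7, 320, 921 and 856 in the control library. Unlike Camk2a, Shank1 was flat between the 2 upper ranges: the 50% or more range had 0.973, 1.01 and 0.930 times the level of the 30 to 50% range in the runner, aged and control libraries, where Camk2a had 1.43, 1.61 and 1.47 times.

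Nrgn encodes neurogranin, a small postsynaptic protein that binds calmodulin when calcium is low. It had 162, 217, 359.9 and 442 CPM over the 4 ranges in the runner library, 87.7, 101, 289 and 312 in the aged library, and 131, 135, 324 and 334 in the control library. The ratio between top and bottom ranges was 2.73 (2.21 to 3.35) in the runner library, 3.56 (2.53 to 5.06) in the aged library and 2.54 (1.75 to 3.64) in the control library. These intervals lie below those of Camk2a in all 3 libraries. On the log2 scale, the ratio of Camk2a exceeded that of Nrgn by 3.64 in the runner library, 2.69 in the aged library and 2.78 in the control library. For Map2 the excess was 2.06, 1.71 and 2.55, and for Shank1 2.71, 1.84 and 1.81, in the same libraries.

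Arc, an immediate early gene whose mRNA is made on synaptic activity and sent to active dendrites, gave 30 UMIs in the runner library, 15 in the aged library and 12 in the control library. In the 50% or more range it had 5, 6 and 1 UMIs and in the under 10% range 14, 1 and 3 UMIs in the runner, aged and control libraries. Its ratio between these ranges was 2.08 (0.587 to 6.11) in the runner library and 1.84 (0.0351 to 23.0) in the control library, so that no difference was detectable there at this depth. With a single UMI in the bottom range, the aged library gave 10.99 (1.33 to 505).

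**Figure D1:**
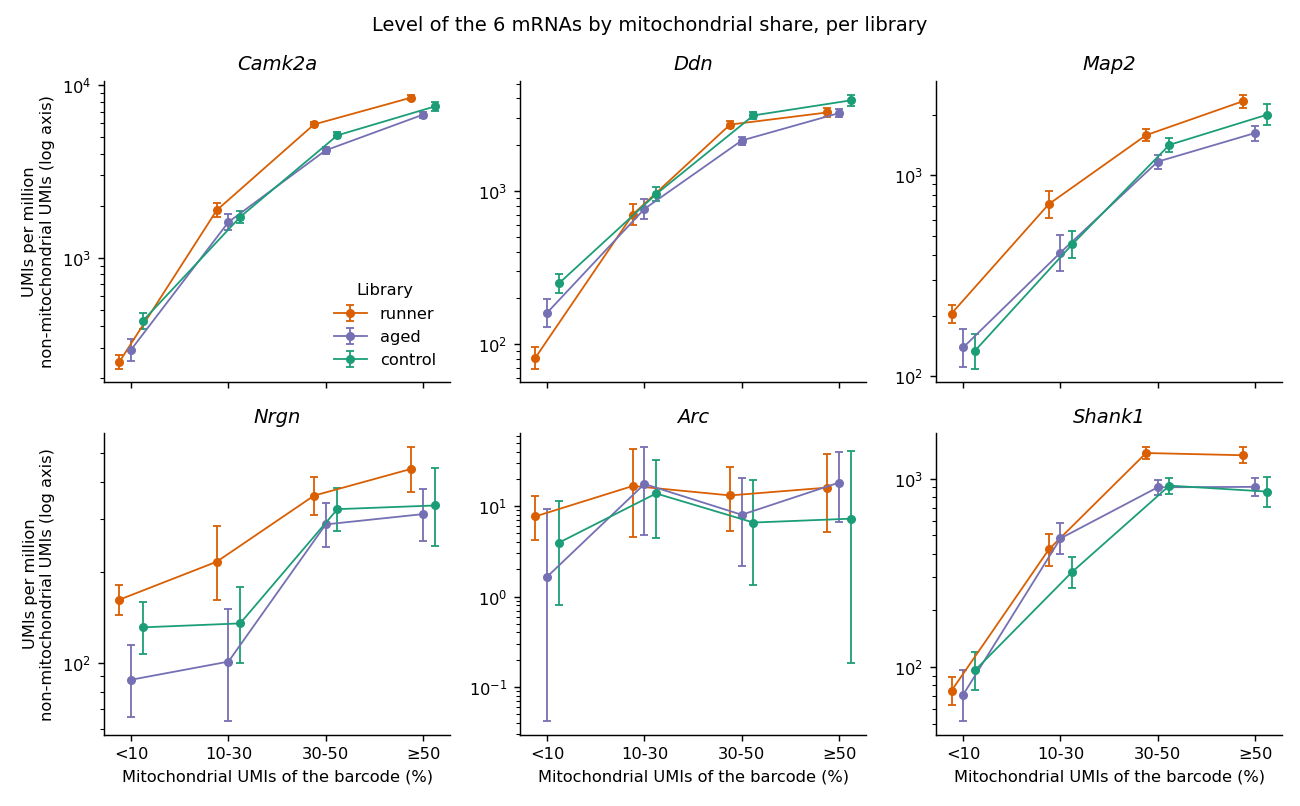
CPM (log axes, which differ between panels) of each of the 6 mRNAs by the barcodes' mitochondrial share, with 1 point per library and exact 95% Poisson intervals. Camk2a reaches 8479 in the runner library at 50% or more, and the points of Arc have intervals that overlap along the whole axis.

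The difference between ranges was tested over the 12 sums of 3 libraries and 4 ranges with edgeR's quasi-likelihood test, with a term for the library. Its adjusted p-values (Benjamini-Hochberg over 7662 genes) weigh a difference between ranges against how far the ranges' effects vary over 3 libraries of different groups. All 5 members that passed the filter on low counts were higher in the 50% or more than in the under 10% range, where 29.2% of all genes tested were higher and 32.7% lower. Arc did not pass the filter. The members were picked with earlier results of these data known, so these calls are not independent support for a difference. The log2 fold change was 5.26 for Camk2a (SE 0.16, adjusted p = 5.76e-30, edgeR), 5.19 for Ddn (SE 0.19, adjusted p = 2.07e-27) and 4.33 for Map2 (SE 0.15, adjusted p = 2.18e-28). It was 4.39 for Shank1 (SE 0.19, adjusted p = 3.09e-25, edgeR) and 2.23 for Nrgn (SE 0.17, adjusted p = 2.9e-16). Only 25 genes had a larger log2 fold change than Camk2a, 26 than Ddn, 88 than Map2 and 85 than Shank1, while 759 genes or 9.91% had a larger one than Nrgn. Between the 30 to 50% and the under 10% range all 5 were again higher, by 4.54, 4.67, 3.69, 4.29 and 1.92 on the log2 scale for Camk2a, Ddn, Map2, Shank1 and Nrgn, with 32.0% of genes tested higher and 33.8% lower. Between the 10 to 30% and the under 10% range, 4 of the 5 were higher, where 14.8% of genes tested were and 8.91% were lower: by 2.43 for Camk2a, 2.37 for Ddn, 1.70 for Map2 and 2.34 for Shank1. Nrgn had a log2 fold change of 0.22 (SE 0.18, adjusted p = 0.429, edgeR) in that comparison. Fold changes are relative to edgeR's TMM scaling, under which the median gene stood at -0.25. Without a scaling factor the median gene stood at -0.95, 1481 genes were higher and 4068 lower in place of 2236 and 2506, and the 5 members were still higher.

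The ranges differ in more than these mRNAs. The barcodes' median of non-mitochondrial UMIs was 307, 342 and 326 in the 50% or more range and 1707, 1360.0 and 1391 in the under 10% range, in the runner, aged and control libraries. The microglial marker list summed to 999, 1410 and 1502 CPM in the 50% or more range and to 14740, 21538 and 17682 in the under 10% range in these libraries. The granule-neuron list, by contrast, summed to 621, 485 and 631 CPM in the 50% or more range and to 610, 369 and 556 in the under 10% range, so its sum differed little where Camk2a differed by 17.5 times or more. This sum hides opposite moves. Snap25, which the pyramidal neuron list shares, alone had 365, 297 and 399 CPM at 50% or more, against 193, 94.4 and 184 under 10%. The rest of the granule-neuron list together was thus lower at 50% or more in all 3 libraries. Other lists were higher in the mitochondria-rich barcodes in all 3 libraries: the astrocyte list summed to 7899, 8139 and 8828 CPM at 50% or more, against 2814, 3265 and 3265 under 10%. The GABAergic neuron list summed to 195, 149 and 87.0 CPM against 33.0, 14.9 and 22.3, in the same order. The pyramidal neuron list, with Snap25 in its sum, had 599, 616 and 638 against 469, 243 and 389. Without Snap25, the rest of the pyramidal neuron list was lower at 50% or more in the runner library. That rest was higher in the aged and control libraries. Globin transcripts summed to 788, 813 and 1516 CPM at 50% or more, against 45260, 42668 and 34188 under 10%. The part of the cell mixture in the members' difference was not tested as a whole, and the levels within cell types are given further on.

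Counting each barcode at the same depth gave the same order. After thinning to 100 non-mitochondrial UMIs, for which none of these barcodes was too shallow, at least 1 member UMI was seen in 70.8% of runner, 67.7% of aged and 71.8% of control barcodes of the 50% or more range, against 6.46%, 5.74% and 8.16% in the under 10% range. Unthinned, these shares were 94.35%, 94.97% and 97.8% against 53.3%, 46.4% and 61.3%. Camk2a alone was seen in 50.5%, 46.6% and 48.3% of thinned barcodes at 50% or more and in 2.72%, 1.496% and 3.23% under 10%. Nrgn was seen in 3.62%, 2.91% and 4.21% at 50% or more and in 0.908%, 0.998% and 1.14% under 10%, close to the level of single UMIs. Without thinning, and so at unlike depths, at least 3 of the 6 were present in 44.7% of runner, 39.9% of aged and 44.1% of control barcodes at 50% or more. Under 10% they were present in 7.27%, 3.99% and 6.45%, again without thinning. The number that genes placed independently of each other would give was not tested. The 1% of barcodes with the most member UMIs held 6.58%, 8.03% and 7.36% of them in the runner, aged and control libraries.

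Other genes were set beside the members in lists grouped by where their RNA or protein is known to lie, by induction or by function. A difference between lists is therefore not a comparison of RNA location alone. These lists too were chosen with earlier results of these data known, so the counts of genes called are a description. Of 15 tested mRNAs known from dendrites, all 15 were higher in the 50% or more range, with log2 fold changes of 1.34 to 6.88 and a median of 3.92. Those with the most UMIs were Kif5a, a kinesin motor (5.78), Psd, an exchange factor of the postsynaptic density (5.57), Ppp1r9b, the spine protein spinophilin (4.61), and Dlg4, the scaffold PSD-95 (5.11). Of 15 presynaptic and somatic neuronal genes 12 were higher and 3 did not pass, with a median of 1.79. Ncdn (neurochondrin, 3.25), Vamp2 (synaptic vesicle fusion, 2.34) and Snap25 (synaptic vesicle fusion, 1.87) were among the higher ones, while Rtn1, a reticulon of the endoplasmic reticulum, had -0.25 (adjusted p = 0.234, edgeR). Without a scaling factor the dendritic list had 14 of 15 higher and a median of 3.21, whereas the presynaptic and somatic list had 9 higher and 3 lower and a median of 1.09. With all UMIs as the total, mitochondrial ones included, the median gene stood at -2.18, the dendritic list had 11 higher and 1 lower of 16, with a median of 1.90, the presynaptic and somatic list 5 higher and 6 lower of 15, and the members 5 higher. The backgrounds for the fits on non-mitochondrial UMIs are the values for all genes tested given above. With all UMIs as the total, 657 of 9232 genes tested were higher and 7361 lower.

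The nuclear list was split and the induced genes were lower. Of 5 neuronal transcripts kept in the nucleus or coding for a nuclear protein, 3 were lower and 2 higher, with Meg3 at -3.79 and Snhg11 at -3.41, both long noncoding RNAs, but Rian, also long noncoding, at 3.13 and Rbfox3, the neuronal nuclear protein NeuN, at 1.24. Rbfox3 did not pass without a scaling factor (0.54, adjusted p = 0.117, edgeR). All 8 immediate early genes tested were lower, with a median of -4.04, among them Jun (-3.95), Fos (-4.39), Junb (-3.88) and Dusp1 (-4.25). Arc, which belongs to the same class by induction, had a ratio above 1 in all 3 libraries, though its intervals reached below 1 in the runner and control libraries.

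Among glial mRNAs known to enter processes, 6 of 8 were higher and 1 lower. Slc1a2 (glutamate transporter) stood at 3.31, Mbp (myelin basic protein) at 2.33 and Slc1a3 (glutamate transporter) at 0.34. Slc1a3 turned to -0.36 without a scaling factor, where the list had 4 higher and 2 lower. The cytoskeletal genes nearest to Map2 in function were split, with Map1a at 3.01 and Map4 at 2.66, Tuba1a at -0.75 and Map1b at -0.03, the last not past the test. Of 9 calmodulin and kinase genes 6 were higher and 1 lower, with Calm3 at 2.83 and Pcp4, a calmodulin regulator, at 0.61, and Calm2 at -0.24 (adjusted p = 0.107, edgeR). Pcp4 stood at -0.09 without a scaling factor. With all UMIs as the total, the glial list had 3 higher and 4 lower and the cytoskeletal list 2 higher and 4 lower. The calmodulin and kinase list then had 3 higher and 6 lower, and all 8 immediate early genes were lower. In that fit 657 of 9232 genes tested were higher and 7361 lower, so a lower call was the usual one.

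**Figure D2:**
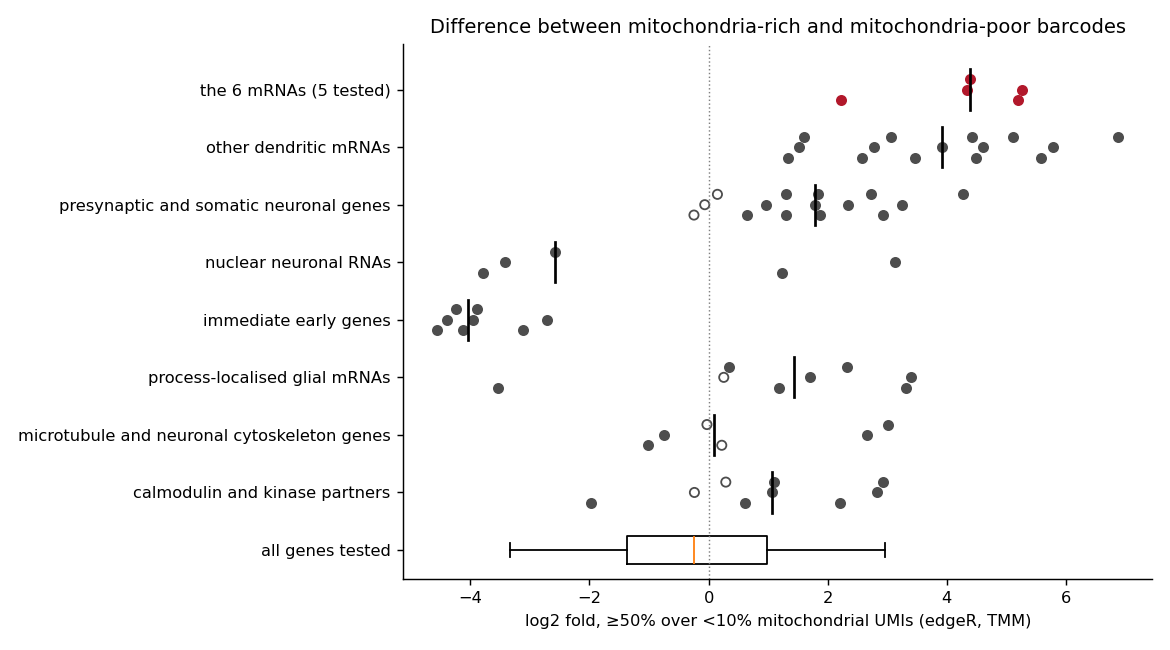
Log2 fold change (50% or more over under 10% mitochondrial UMIs, edgeR with TMM scaling) of the members and of each list, with 1 point per gene, filled where the adjusted p passed 0.05, a bar at each list's median, and a box (quartiles, whiskers at the 5th and 95th percentiles) for all 7662 genes tested. The 5 members tested lie between 2.23 and 5.26, and all 8 immediate early genes lie below 0.

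The genes most like the summed members were found by Pearson's r over the 12 sums, on log2 of CPM plus 20, among 7342 genes. These sums share libraries and depth, and the values are a description. Gng13, Hpcal4 and Dlg4 had an r of 0.997, Rapgef4, Selenow and Nsmf 0.996, Cox6a1 and Gm10925 0.995, and Dact3 and Nrsn1 0.994. In all, 543 genes or 7.40% had an r over 0.9, and the median over genes was -0.60. Gm10925 is a predicted gene whose transcript shares 100% of its 31-base words with the mitochondrially encoded transcripts, pooled over both strands. Its UMIs may thus come from mitochondrial RNA, which was not tested. The same caution applies to Gm28438, with 99.0% of its words shared, which was among the 3 genes most like Ddn.

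By the same measure, Camk2a was closest to Rapgef4 (0.997), Hpcal4 (0.996) and Dlg4 (0.995). Ddn was closest to Kifc2 (0.994), Gm28438 (0.993) and Rapgef4 (0.990), and Map2 to 2900097C17Rik (0.993), Dlg2.1 (0.991) and Nsmf (0.989). The genes closest to Shank1 included Epb41l1 (0.991) and Ndrg2 (0.990). Nrgn was closest to Gpx4-ps2, Ndufs5 and Usp50, at 0.966, 0.966 and 0.963, and none of its nearest genes was among those of Camk2a, Ddn, Map2 or Shank1. Arc, with its few UMIs, reached 0.855 with Adcy2, 0.846 with Kifc3 and 0.836 with Gpd2. Among the members themselves, r over the 12 sums was 0.991 for Camk2a with Ddn, 0.981 with Shank1, 0.977 with Map2 and 0.850 with Nrgn.

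Cell types were called in the barcodes under 10% mitochondrial UMIs, from markers that exclude the 6 mRNAs, and the members took no part in the clustering. Granule-neuron-like cells, with Meg3, Atp1b1, Grin2b and C1ql3 among their leading genes, were 58 of 963 runner, 14 of 391 aged and 31 of 512 control cells. The 6 mRNAs together had 3982.5 CPM in runner, 3869 in aged and 5138 in control granule-neuron-like cells. Over the 3 libraries the value was 4250.0 (3990 to 4523) in 103 granule-neuron-like cells. It was 936 in 215 neuroblast-like cells, 843 in 240 astrocyte-like, 833 in 154 Cajal-Retzius-like, 579 in 74 oligodendrocyte-precursor-like, 375 in 209 oligodendrocyte-like and 425 in 799 microglia-like cells. Granule-neuron-like cells were the highest of these classes in each library. The order of the other classes was not the same in the 3 libraries. Neuroblast-like cells had 858 CPM in the runner library, 1126.5 in the aged library and 1469 in the control library, astrocyte-like cells 491, 1688 and 809, and Cajal-Retzius-like cells 789, 909.6 and 863. The interval of neuroblast-like cells lay above that of astrocyte-like cells in the runner and control libraries, and in the aged library the interval of astrocyte-like cells lay above that of Cajal-Retzius-like cells.

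Microglia are not known to make these mRNAs, so the microglia-like class is used as a reference level. RNA free in the suspension can enter any droplet, but what brought these UMIs to microglia-like cells was not tested. Their clusters under 10% mitochondrial UMIs ran from 373 to 842 CPM of the 6 mRNAs, so this is not a single level. Camk2a had 186 CPM in runner, 190.0 in aged and 327 in control microglia-like cells, and 1029, 1095 and 1619 in granule-neuron-like cells of the same libraries. At least 1 Camk2a UMI was seen in 81.6% of granule-neuron-like and 26.2% of microglia-like cells, with medians of 2051 and 1440 non-mitochondrial UMIs. Ddn was seen in 52.4% against 12.0% of these cells, Map2 in 50.5% against 5.01%, and Shank1 in 43.7% against 6.38%. Nrgn showed the widest gap, with 76.7% against 3.50%. Arc was seen in 3.88% of granule-neuron-like cells, from 4 UMIs, and in 0 of the microglia-like cells' 1187047 UMIs.

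Nrgn had 1784 CPM in runner, 1569.5 in aged and 1408 in control granule-neuron-like cells. In neuroblast-like cells, which express markers of newborn neurons, it had 9.17, 0 and 48.2 in the runner, aged and control libraries, within the range of microglia-like cells when summed (12.9 against 24.4). Map2 was present in every neuronal class: it had 494, 401 and 246 CPM in granule-neuron-like cells, 486, 732 and 578 in neuroblast-like cells and 348, 341 and 173 in Cajal-Retzius-like cells, in the runner, aged and control libraries. Astrocyte-like cells had 174, 233 and 294 in these libraries, in the control library no lower than granule-neuron-like cells, and microglia-like cells had 36.2 in all. Camk2a over the 3 libraries had 1180.0 CPM in granule-neuron-like, 235 in neuroblast-like and 255 in Cajal-Retzius-like cells, against 227 in microglia-like cells, but in the control library alone neuroblast-like cells had 554 (351 to 831, from 23 UMIs) and microglia-like cells 327 (269 to 393), with intervals that overlap.

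**Figure D3:**
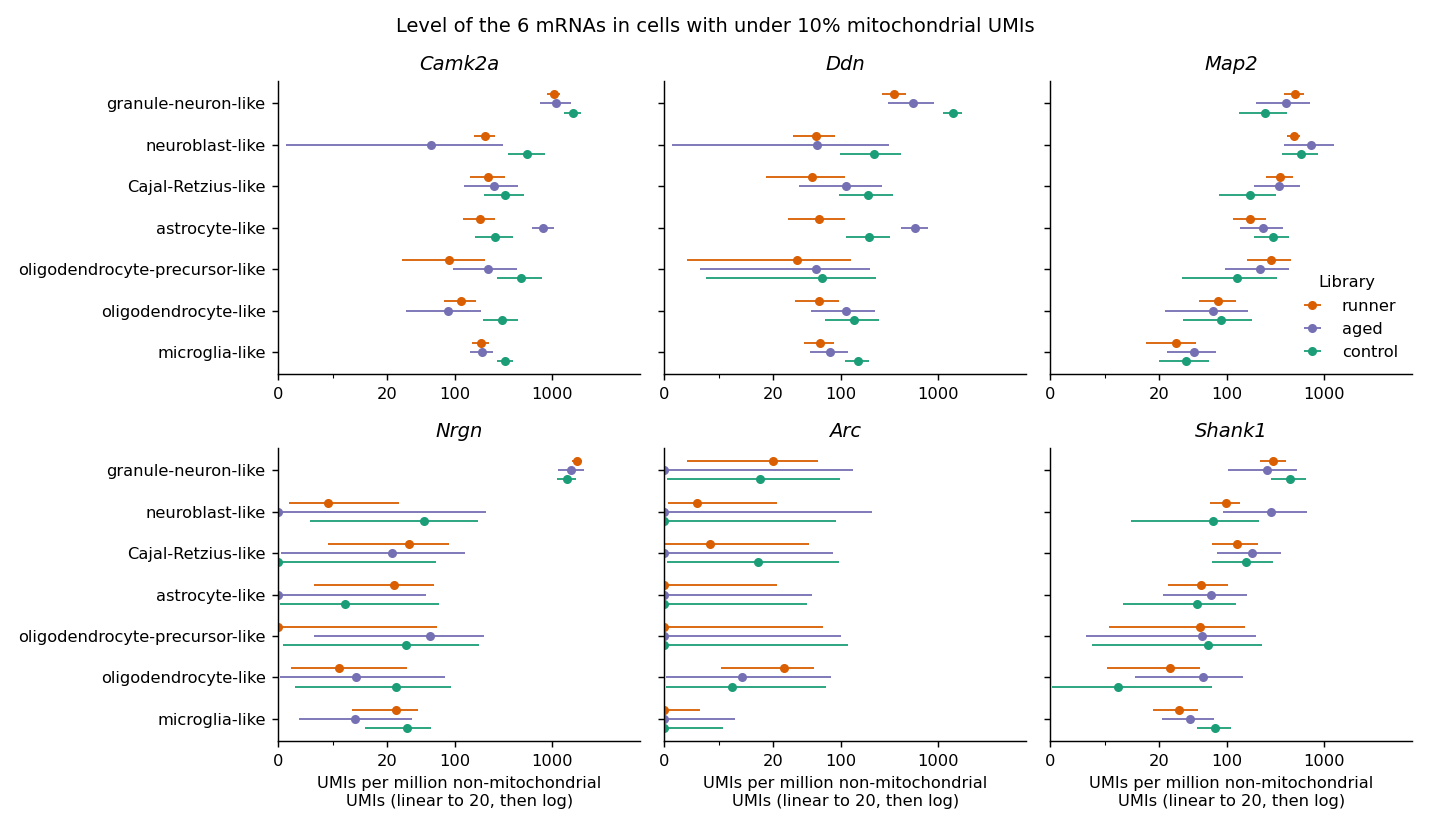
CPM (linear to 20, then log) of each mRNA in 7 cell classes under 10% mitochondrial UMIs, with 1 point per library and exact 95% Poisson intervals. Nrgn lies between 1408 and 1784 in granule-neuron-like cells, far to the right of every other class, whereas the points of Map2 in neuroblast-like and granule-neuron-like cells overlap.

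Single barcodes weighed on some class levels. One control granule-neuron-like cell held 95 member UMIs (36 of Camk2a, 42 of Ddn and 14 of Shank1, none of Nrgn) in 2112 non-mitochondrial UMIs. One aged astrocyte-like cell held 92 (49 of Camk2a and 38 of Ddn, none of Nrgn) in 3894. The next cell held 27. Without the 1% of barcodes of each library richest in members (34 runner, 25 aged and 24 control), the granule-neuron-like level was 3498. These barcodes were chosen by their member UMIs, so a fall in that level was fixed in advance. The ratio of aged to control astrocyte-like cells turned to 0.556 (0.350 to 0.864) without these barcodes, against 2.09 (1.54 to 2.86) with them.

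The make-up of the members differed between cells and mitochondria-rich barcodes. For every 100 UMIs of Camk2a, Nrgn gave 141 (121 to 165) in granule-neuron-like cells, and 46.7, 8.59, 6.38 and 4.85 in all barcodes of the 4 ranges, low to high. In the 50% or more range alone, the value was 5.21 in the runner library, 4.63 in the aged library and 4.43 in the control library, against 173, 143 and 87.0 in granule-neuron-like cells of these libraries. The 3 libraries did not overlap between these sets. Microglia-like cells had 10.7 (7.06 to 15.8) Nrgn UMIs per 100 of Camk2a, nearer to the mitochondria-rich barcodes than to granule-neuron-like cells. Map2 gave 35.9 per 100 in granule-neuron-like cells, 215 in neuroblast-like cells and 118 in Cajal-Retzius-like cells, and 58.3, 29.8, 27.3 and 26.02 over the 4 ranges. Ddn gave 45.5, 47.6, 51.6 and 44.1 per 100 over the ranges with the 3 libraries summed, but the libraries differed, with 32.8, 37.2, 45.6 and 38.3 in the runner library, 54.8, 47.4, 50.8 and 47.6 in the aged library and 57.9, 55.3, 60.5 and 51.6 in the control library. Shank1 had 26.3, 22.7, 21.1 and 14.1.

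**Figure D4:**
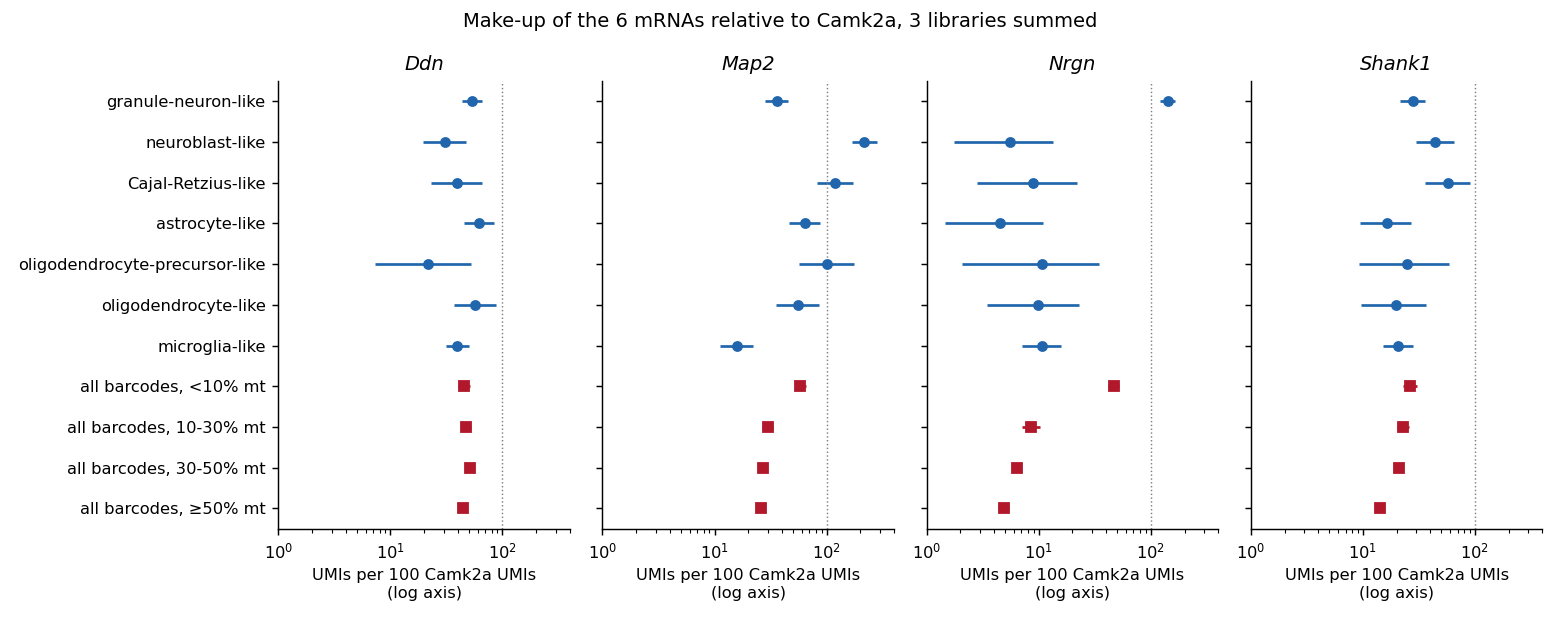
UMIs of 4 members per 100 Camk2a UMIs (log axes), summed over the 3 libraries, in cell classes under 10% mitochondrial UMIs (circles) and in all barcodes of each mitochondrial range (squares), with exact 95% intervals. Nrgn stands at 141 in granule-neuron-like cells and at 4.85 in the 50% or more range, while Ddn summed over the libraries lies between 44.1 and 51.6 over the ranges.

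When barcodes of all ranges with at least 200 genes were clustered together, again without the members, 4392 fell into 5 clusters that took no cell type name. Their leading genes included the neuronal Kif5a, Dlg4, Psd, Ppp1r9b, Rapgef4 and Hpcal4, and in some also the oligodendrocyte gene Mobp, the respiratory chain gene Cox6a1, and Gm28438. A pair of them, with 740 and 683 barcodes, was led by Aldoc, an astrocyte gene. The members' level in the 5 clusters was 9030 to 17381 CPM. Clusters without a cell type name held 97.0% of runner, 94.9% of aged and 92.5% of control barcodes clustered at 50% or more, which were 656, 719 and 343 barcodes. That range holds 938, 894 and 404 barcodes in all, and those under 200 genes were not clustered. Leading genes of clusters are a description, not a test.

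Within the cell classes of this joint clustering the members' level also went up with mitochondrial share. Microglia-like cells had 431, 3025, 6486 and 9838.5 CPM of the 6 mRNAs over the 4 ranges, low to high, from 803, 268, 148 and 9 cells of the 3 libraries. This class joins 2 clusters that themselves differ in mitochondrial share, 1 with a median of 4.02% and 742 CPM of the members and 1 with a median of 29.0% and 4356 CPM. The astrocyte-like class is a single cluster. Astrocyte-like cells had 552, 2719, 6224 and 11747 from 247, 192, 117 and 24 cells. Camk2a alone in microglia-like cells had 231, 1452, 3213 and 5298. In granule-neuron-like cells the members together had 3873, 4302 and 9549.8 in the 3 lower ranges, from 103, 50 and 5 cells, with Camk2a at 1037, 1960 and 4547.5 but Nrgn at 1678.5, 636 and 1364. The order of the Camk2a values over these ranges was thus the same in granule-neuron-like and microglia-like cells. Nrgn in granule-neuron-like cells instead fell from 1678.5 in the under 10% range to 636 in the next range. The top of these 3 ranges rests on 5 granule-neuron-like cells, and no interval is given for it. Whether Nrgn there was below its under 10% level is therefore not settled, and the Camk2a value there rests on the same 5 cells.

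Wheel running and age were compared with the control library, 1 library each, so there is no replicate check and no test, and differences between mice, dissections and libraries cannot be told apart from the treatment. Both comparisons use the same control library. Over all barcodes, Camk2a had 2311.5 CPM in the runner and 2517 in the control library, a ratio of 0.918 (0.884 to 0.954). Ddn had 954 in the runner and 1446 in the control library, a ratio of 0.660 (0.625 to 0.697). Map2 had 729 in the runner and 689.8 in the control library (ratio 1.06, 0.983 to 1.14), Nrgn 233 against 199.5 (1.17, 1.02 to 1.33) and Shank1 477 against 423 (1.13, 1.03 to 1.24). None of the 6 was past 2-fold, where 3.53% of genes were at least 2-fold higher and 2.32% at least 2-fold lower in the runner library.

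In the aged library Camk2a had 2927.5 CPM, against 2517 in the control library, a ratio of 1.16 (1.12 to 1.21). Shank1 had 543 in the aged and 423 in the control library (1.28, 1.16 to 1.42), and Map2 had 779 against 689.8 (1.13, 1.04 to 1.22). Ddn had 1440.3 in the aged and 1446 in the control library (0.996), and Nrgn 194 against 199.5 (0.975, 0.835 to 1.14). Again none of the 6 was past 2-fold, where 1.9% of genes were at least 2-fold higher and 3.39% at least 2-fold lower. Arc had 10.3 CPM in the runner, 9.03 in the aged and 6.98 in the control library, with ratios of 1.48 (0.736 to 3.17) and 1.29 (0.565 to 3.03).

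These ratios over all barcodes turned within the ranges. For the 6 mRNAs together, runner over control was 0.893 (0.869 to 0.917) over all barcodes and 0.748 under 10%, but 1.10, 1.10 and 1.08 in the 3 ranges above. Aged over control was 1.12 (1.08 to 1.15) over all barcodes, yet 0.722, 0.942 (0.860 to 1.03), 0.798 and 0.877 within the 4 ranges, low to high, and 0.990 (0.962 to 1.02) over all barcodes when mitochondrial UMIs were counted in the total. The libraries differ in how their RNA is spread over the ranges: the under 10% range held 62.6% of the runner library's non-mitochondrial UMIs, 36.4% of the aged library's and 44.4% of the control library's.

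Range by range, Shank1 was the member furthest above the control library in the mitochondria-rich barcodes of runners, with ratios of 1.49 at 30 to 50% and 1.56 (1.27 to 1.93) at 50% or more, while Ddn was the only member below 1 at 50% or more, at 0.834. Under 10%, Ddn was the only member past 2-fold in the runner library, at 0.329 (0.263 to 0.409), in a range where 2.94% of genes were at least 2-fold lower and 5.21% at least 2-fold higher. Camk2a stood at 0.580 (0.502 to 0.671) and Map2 at 1.53 (1.23 to 1.93) in that range. In the aged library at 50% or more, Camk2a stood at 0.896, Ddn at 0.826, Map2 at 0.812, Nrgn at 0.936 and Shank1 at 1.06 relative to control, and at 30 to 50% all 5 lay between 0.686 (Ddn) and 0.980 (Shank1). At 10 to 30%, Shank1 stood at 1.51 (1.15 to 1.97) for aged over control. At 10 to 30%, 30 to 50% and 50% or more no member counted was past 2-fold in the runner library, where 7.28%, 4.74% and 6.12% of genes were at least 2-fold higher and 4.39%, 3.78% and 3.84% at least 2-fold lower. None was in the aged library over the 4 ranges, low to high, where 2.9%, 4.32%, 3.4% and 3.62% of genes were at least 2-fold higher and 3.17%, 5.0%, 2.31% and 4.35% at least 2-fold lower. Genes counted had at least 20 UMIs over both libraries, which Arc did not reach within a range. Over all genes the median ratio was near 1 in every range, at most 0.11 on the log2 scale from 0.

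**Figure D5:**
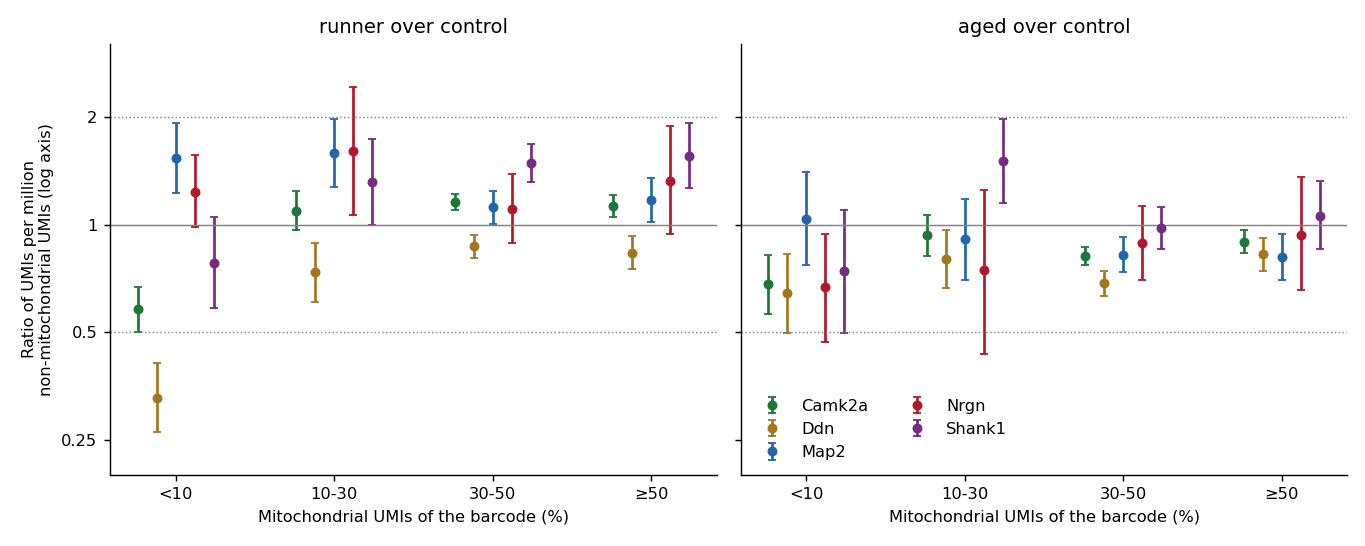
Ratio of CPM (log axis) in the runner library over control (left) and in the aged library over control (right), for 5 members in each mitochondrial range, with exact 95% intervals that cover counting error only and dotted lines at 2 and 0.5. Ddn in runner barcodes under 10% is the only point past a dotted line, at 0.329.

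Under 10%, Ddn was lower in runner than in control microglia-like cells. Ddn was also lower in granule-neuron-like cells, but the interval there reached above 1 without the richest 1% of barcodes. In microglia-like cells Ddn stood at 0.408 (0.256 to 0.641) for runner over control, and the 6 mRNAs together at 0.537 (0.439 to 0.656), with 334 CPM in runner and 622 in control microglia-like cells. For aged over control the 6 together stood at 0.594 (0.466 to 0.754) in microglia-like cells. In granule-neuron-like cells Ddn had 354 CPM in the runner and 1408 in the control library, a ratio of 0.252 (0.174 to 0.360), and without the richest 1% of barcodes 0.642 (0.387 to 1.09). Map2 in granule-neuron-like cells had 494 in the runner and 246 in the control library, a ratio of 2.01 (1.12 to 3.85), and 2.80 (1.33 to 6.78) without those barcodes. All 6 together in granule-neuron-like cells gave 0.775 for runner over control and 0.753 for aged over control, and 1.08 and 0.986 without the richest barcodes.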

How the data were processed

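The authors deposited 1 table of UMI counts (genes by barcodes) per library; per the submitters' processing notes these were made with Cell Ranger 2.1.1 and Seurat 3.1.0 on GRCm38. The mitochondrial share was taken per barcode over all genes with the mt- prefix, and members were scaled to non-mitochondrial UMIs. The members and all comparison lists were chosen with earlier results of these data known. Named genes were the members, the genes most like them (10 for their sum, 3 per member, 5 over clusters) and the 4 with the most UMIs of each list; some genes under this rule are not reported here. edgeR 4.0.16 (R 4.3.3, with filterByExpr, TMM and quasi-likelihood) was run on 12 sums with a library term, and DESeq2 1.42.0 was an alternative. In simulated data with 100 genes changed 2-fold and 100 changed 4-fold, edgeR recovered 72% and 97% of them. Of its calls there, 3.98% were false. Far fewer genes differed in the simulated data than between the real ranges, so the simulation does not check the scaling. Cells were clustered with Scanpy 1.11.5 (2000 variable genes, 30 principal components, Leiden resolution 1.0) and named from markers; the need for at least 3 markers, and at least 1 in 2 of those listed, in a cluster was set after seeing the data. Scrublet marked 3 runner, 4 aged and 1 control barcodes, under 0.5% of them, so it did not work as a doublet caller there; among barcodes under 10% mitochondrial UMIs it called 6, 2 and 2 cells, which were removed before cell classes were made, and doublets may remain. Motifs were searched in GENCODE M21 transcripts. Depths run from 2330698 to 3808360 UMIs per library; intervals are exact Poisson, Clopper-Pearson or conditional binomial at 95%.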

Additional observations from a re-analysis of the deposited data

How the results depend on the processing

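The 5 members tested were higher in the 50% or more range in all 13 alternative fits, with log2 fold changes of 3.48 to 5.54 for Camk2a, 3.42 to 5.63 for Ddn, 2.55 to 4.41 for Map2, 2.61 to 4.68 for Shank1 and 0.43 to 2.47 for Nrgn. Counts over all genes moved more. Without scaling of non-mitochondrial UMIs 1481 genes were higher and 4068 lower, with all UMIs as the total 657 and 7361, and between 60% or more and under 5% 823 and 1491. Leaving out each library gave 1849 to 2053 higher and 1865 to 2167 lower, and DESeq2 gave 2006 and 2500. Arc was called only without the filter (2.23, adjusted p = 0.0022, edgeR) and by DESeq2 (2.14, adjusted p = 0.014). Thinning to 300 UMIs put at least 1 member UMI in 94.98% of runner, 94.3% of aged and 96.5% of control barcodes at 50% or more, leaving out 440, 280 and 118 shallower barcodes, and no thinning in 94.35%, 94.97% and 97.8%, in place of 70.8%, 67.7% and 71.8%. The level of the 6 mRNAs in granule-neuron-like cells was 3980.5 with classes from all barcodes and, in an alternative chosen after seeing the data, 3498 without the richest 1% of barcodes. Choosing those barcodes by member UMIs fixed the direction of that last move. Runner over control for the 6 together was 0.893, and 0.923 over all UMIs, 0.8555 with at least 200 genes, 0.847 with TMM scaling and 0.800 against the aged library in place of control; by range it was 0.748, 1.10, 1.10 and 1.08. Aged over control was 1.12, and 0.990 over all UMIs, 1.18 with TMM scaling and 1.25 against the runner library; by range it was 0.722, 0.942, 0.798 and 0.877. The cause of these moves was not tested. No alternative was run for the levels by cell type and range together. No paired analysis was possible because each group is 1 library. Depth limits Arc, with 57 UMIs in all, and cell classes under 20 cells.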

Other observations

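Oligodendrocyte-like cells under 10% mitochondrial UMIs held 9 Arc UMIs in 209 cells, or 21.5 UMIs per 1000000 non-mitochondrial UMIs (CPM), 7 of them in the runner library. Granule-neuron-like cells held 4 in 103 cells, or 17.1 CPM. These levels did not differ beyond counting error, and in the control library the order was the other way, with 12.5 and 17.6 CPM.

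Over the 16 clusters of all barcodes, the genes most like the summed members were Dlg4 (Pearson's r 0.983), Psd (0.976), Cacnb3 (0.974), Usmg5 (0.974) and Purb (0.974), a description over clusters that share libraries and were built from these genes. A cluster of 144 barcodes rich in globin transcripts held 6852 CPM of the members. The 5 genes whose transcripts share most 31-base words with mitochondrially encoded transcripts took 1.02% of runner, 1.30% of aged and 1.41% of control non-mitochondrial UMIs at 50% or more, and 0.0322%, 0.0528% and 0.0674% under 10%. Without them 2234 of 7657 genes were higher and 2505 lower, and Camk2a stood at 5.26.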
